A study of Homo sapiens with 4 samples.

Results

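The genes described here are 9 human genes that RNA polymerase III transcribes into RNAs other than tRNA: RN7SL1 and RN7SL2, VTRNA1-1, VTRNA1-2, VTRNA1-3 and VTRNA2-1, RN7SK, RMRP, and RPPH1. They were chosen by name, each with 1 position on genome build hg19, and a gene was counted as having a SOX4 peak where a deposited peak reached within 1 kb of that position. The positions came with the list of genes, were not checked against an hg19 annotation, and are not stated to mark the start or any other part of a gene, so all distances below are from the given position only. By this rule 4 of the 9 genes had a peak, and their 4 regions were among 862 regions found in the series as a whole. The cells were U251, an established human glioblastoma line, made to overexpress the transcription factor SOX4 with an HA epitope tag (HA-SOX4) and taken 3 days after virus infection. Chromatin was immunoprecipitated with an antibody to the tag in 3 independent immunoprecipitations (IP 1, IP 2 and IP 3), and 1 input of the same kind of chromatin was sequenced beside them. All 4 samples carried HA-SOX4, so the lists hold no comparison with cells that lack the tagged protein. The labels do not say that the immunoprecipitations came from separate cultures, and the spread between them may be technical.

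RNA polymerase III makes short untranslated RNAs and is recruited through 2 broad kinds of promoter among these genes. The 7SL and vault RNA genes, like tRNA genes, have promoter elements inside the transcribed sequence, bound by TFIIIC, and are helped by elements upstream of the start. RN7SK, RMRP and RPPH1 are driven by elements upstream of the start, among them a TATA box and a proximal sequence element bound by SNAPc. The series title places its question at the repression of specific tRNA genes by SOX4, and these genes share the polymerase with the tRNA genes.

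SOX4 peaks lay at RN7SL2 and at all 3 genes of the VTRNA1 group in each of the 3 immunoprecipitations, and at none of the other 5 genes in any of them. Among genes with internal promoter elements, 4 of 6 had a peak in every list. Of these 4, 3 are neighbours in the VTRNA1 group. The other, RN7SL2, is 299 bases long in RefSeq and had summits 319 to 329 bp from its given position. If that position lies within the gene, the summits lie outside the transcribed sequence and so outside its internal elements. The position was not checked. Among genes with upstream promoter elements, 0 of 3 had a peak in any list. The 9 genes were named with results of these data known, so no test was made on these counts. As background for the 4 gene regions, all of which had a peak in every list, 30.5% of the 862 merged regions of the series did so. Each merged region already had a peak in at least 1 list, so this share is not a background for the counts over 9, 6 or 3 genes. Positions within 1 kb of a peak made up 0.0486%, 0.0397% and 0.0315% of the effective genome in IP 1, IP 2 and IP 3. These shares count all bases and not genes of this kind, so they are no matched background for the counts either. No gene had a peak in only some of the lists.

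**Figure D1:**
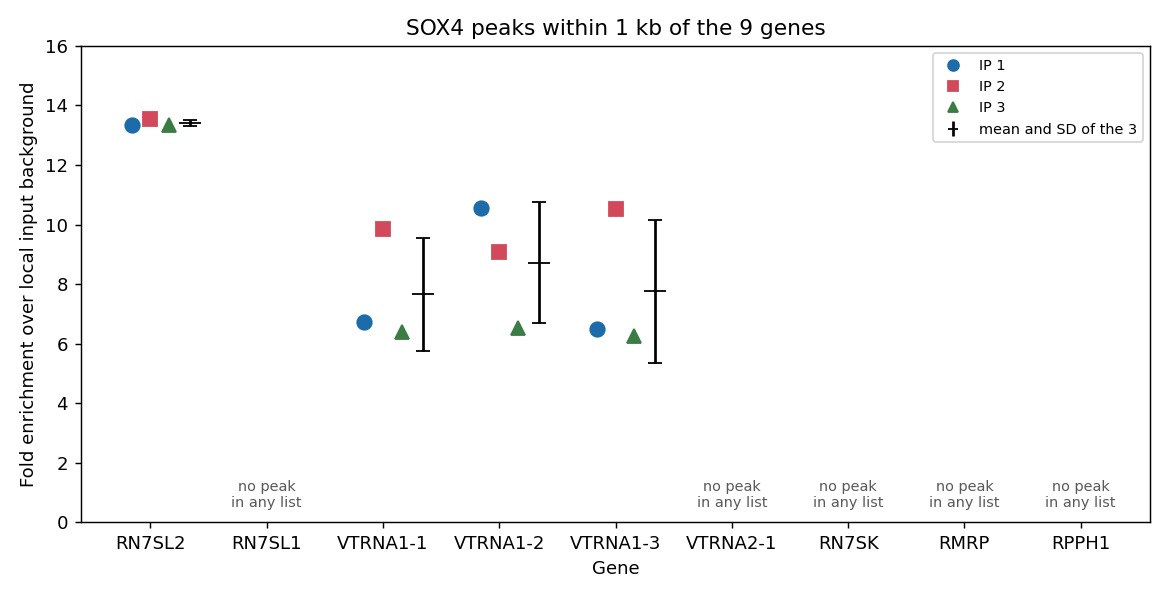
Fold enrichment of the peak within 1 kb of each gene in IP 1, IP 2 and IP 3. The vertical axis is the ratio of summit pileup to local input background, with 1 added to each. The mean and SD of the 3 immunoprecipitations are shown as a bar beside the points. RN7SL2 sits at 13.3 to 13.5 in every immunoprecipitation, the 3 VTRNA1 genes lie between 6.26 and 10.5, and the other 5 genes had no peak in any list.

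RN7SL2 encodes a copy of 7SL RNA, the RNA scaffold of the signal recognition particle, which directs ribosomes making secreted proteins to the endoplasmic reticulum. Its region, on chromosome 14 from 50328805 to 50329463 (hg19), was the strongest of the 4. The fold enrichment, for which the authors divided the pileup of reads at the summit by the local input background, came to 13.4, 13.5 and 13.3 (IP 1, IP 2, IP 3), with a mean of 13.4 ± 0.11 (SD, n = 3). The values are close to one another, with a coefficient of variation of 0.856%, the second lowest of the 263 regions that had a peak in every list, called shared regions below. At the summit 57, 46 and 48 extended reads were piled up, and the −log10 q was 43.1, 35.8 and 36.6. The local input background was 3.34, 2.47 and 2.67 reads on the scale of the pileup, or 2.30, 1.82 and 2.10 times the genome average. All 3 values were taken from the same 1 input, so their differences are not differences between separate measurements of background. The closeness of the folds thus rests on backgrounds of few reads.

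The RN7SL2 peaks lay beside the given position of the gene and not across it in IP 1 and IP 2. The summits were 325, 329 and 319 bp below that position in coordinate, within 10 bp of one another. The peaks of IP 1 and IP 2 ended 194 and 179 bp short of the position. In IP 3 the peak was 650 bp wide, the third widest of the 407 peaks of its list, and ran to 192 bp beyond the position. RN7SL2 is 299 bases long in RefSeq (GRCh38.p14). The tables used here do not give its strand, so whether the summits lie upstream or downstream of the gene is not stated. Counted strictly by peaks that span the position, RN7SL2 would have a peak in IP 3 only.

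RN7SL1, a near-identical copy of the 7SL gene on the same chromosome, had no peak in any list. Its given position on chromosome 14, 50053298, lies 276 kb from that of RN7SL2, and the nearest peak in every list was the RN7SL2 peak itself, 275.5 kb away. The RefSeq table holds 687 symbols of the RN7SL form, of which 684 are typed as pseudogenes. RN7SL1, RN7SL2 and RN7SL3 are the 3 that are not. The sources used here do not say how reads that fit several copies were treated. Reads of 50 bases from inside the gene can fit either copy, and the part this played in the missing peak at RN7SL1 was not tested.

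The vault RNA genes encode short RNAs found partly in vaults, large ribonucleoprotein particles of the cytoplasm. VTRNA1-1, VTRNA1-2 and VTRNA1-3 stand in a row on chromosome 5, at given positions 7.65 kb and 7.22 kb apart. Each list had 3 peaks in the 16.9 kb that covers the group with 1 kb on either side, and each of these was at 1 of the 3 genes. Each gene thus had its own peak, with none called between them. Summits of neighbouring genes were 7.70, 7.72 and 7.66 kb apart for the first pair in IP 1, IP 2 and IP 3. For the second pair they were 7.24, 7.23 and 7.19 kb apart, close to the spacing of the genes.

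VTRNA1-1 had a region on chromosome 5 from 140090759 to 140091088. IP 1 gave a fold of 6.73, IP 2 of 9.85 and IP 3 of 6.38, a mean of 7.66 ± 1.91 (SD, n = 3). IP 2 was highest, and IP 1 and IP 3 were close together. The pileup at the summit was 25, 34 and 31 reads, on a local background of 1.97, 1.88 and 3.15 times the genome average. IP 3 thus had a pileup nearer to that of IP 2, and its lower fold went with the highest background of the 3 calls. All 3 calls used the same 1 input, so this is not a difference between inputs. Pileups are read counts that were not scaled for depth. IP 3 had the fewest tags, 19228143 against 24037735 in IP 1 and 23683012 in IP 2. The summit of IP 3 lay 91 bp above the given position, against 9 and 20 bp in IP 1 and IP 2.

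VTRNA1-2 had a region from 140098372 to 140098704. IP 1 gave a fold of 10.5, IP 2 of 9.08 and IP 3 of 6.53, a mean of 8.72 ± 2.03 (SD, n = 3). Here IP 1 was highest and IP 3 lowest. The pileup was 36, 38 and 23 reads. In this gene the pileup itself was lowest in IP 3, which also had the fewest tags. The background, taken from the same 1 input in each call, was 1.73, 2.42 and 2.10 times the genome average and not highest in IP 3.

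VTRNA1-3 had a region from 140105687 to 140105935. IP 1 gave a fold of 6.50, IP 2 of 10.5 and IP 3 of 6.26, a mean of 7.76 ± 2.40 (SD, n = 3). It had the fewest reads of the 4 genes in every immunoprecipitation, with a pileup of 17, 27 and 15. The input background was also the lowest of the 4 genes, at 1.22 times the genome average in each call, and the fold was the lowest of the vault RNA genes in IP 1 and IP 3 and the highest in IP 2. The lowest −log10 q of the 12 peaks, 6.07, was that of VTRNA1-3 in IP 3.

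Every VTRNA1 peak spanned the given position of its gene. The summits lay 9, 20 and 91 bp above that position at VTRNA1-1, 60, 92 and 96 bp above it at VTRNA1-2, and 80, 104 and 61 bp above it at VTRNA1-3. The genes are 98, 88 and 88 bases long in RefSeq. The summits of the 3 immunoprecipitations spread over 82, 36 and 43 bp, against a median spread of 37 bp in the other 259 shared regions. The VTRNA1 peaks were 183 to 317 bp wide. At RN7SL2 the summits lay farther from the given position, at 319 to 329 bp, a contrast that rests on positions that were not checked.

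**Figure D2:**
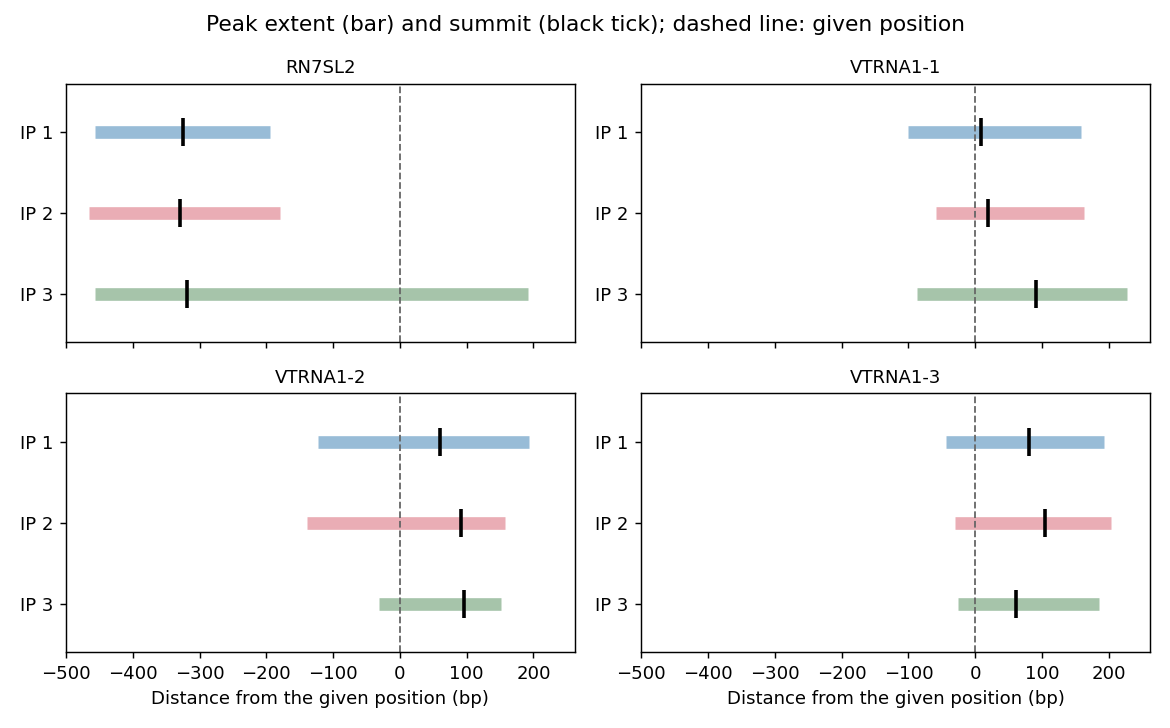
Extent of each peak (coloured bar) and its summit (black tick) in IP 1, IP 2 and IP 3, as distance in bp from the given hg19 position of the gene (dashed line). The VTRNA1 peaks span the position with summits 9 to 104 bp above it, while at RN7SL2 the summits lie 319 to 329 bp below it and only the 650 bp peak of IP 3 crosses it.

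VTRNA2-1, also called nc886, is a vault-like RNA gene elsewhere on chromosome 5 whose promoter is known to be methylated on 1 parental allele in many people. It had no peak in any list. The nearest peaks to its given position, 135416187, were 1.08, 2.62 and 2.95 Mb away in IP 1, IP 2 and IP 3, and the VTRNA1 group lies 4.67 Mb from it.

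None of the genes with upstream promoter elements had a peak. RN7SK encodes 7SK RNA, the scaffold that holds the elongation factor P-TEFb inactive, and the nearest peaks to its position on chromosome 6, 52860418, were 11.5, 19.1 and 19.1 Mb away. RMRP encodes the RNA of RNase MRP, which takes part in processing ribosomal RNA precursors. The nearest peaks to its position on chromosome 9, 35657900, were 2.14, 2.71 and 3.46 Mb away. RPPH1 encodes the RNA of RNase P, the enzyme that trims the leader from tRNA precursors, and is the one of these genes whose product acts on tRNA. The nearest peaks to its position on chromosome 14, 20811400, were 267, 266 and 270.5 kb away, with folds of 11.7, 6.29 and 4.19. In the gene order of RefSeq, RMRP stands between the protein-coding genes SIT1 and CCDC107, and RPPH1 next to PARP2. RN7SK, like 7SL, has many copies, with 293 symbols typed as pseudogenes, while RMRP has 1 and RPPH1 has 2.

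**Figure D3:**
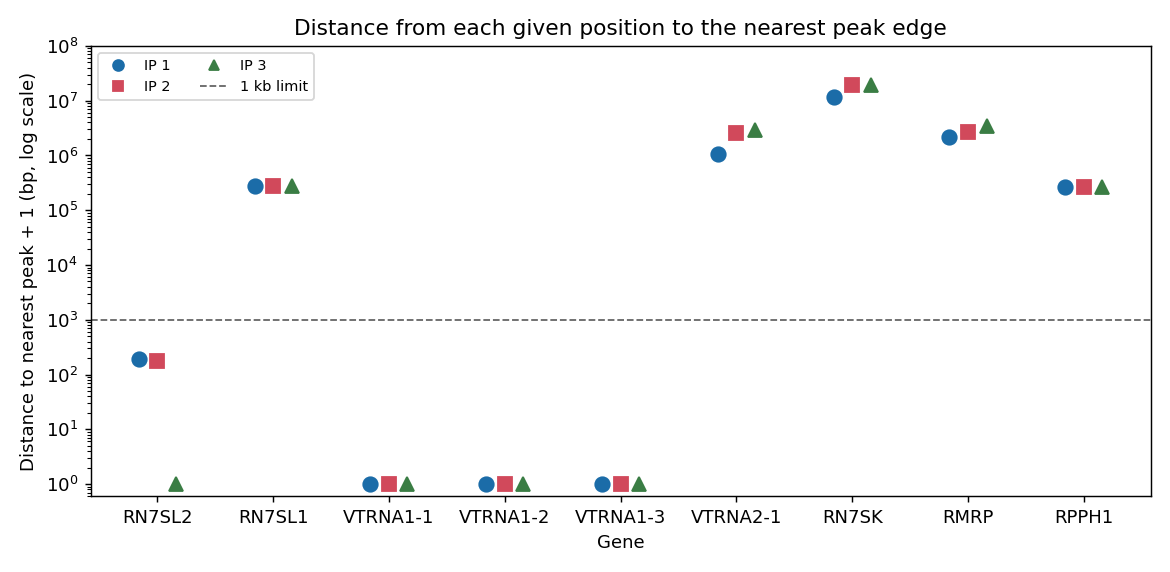
Distance from the given position of each gene to the edge of the nearest peak, plus 1 bp so that 0 can be drawn, on a log scale, in IP 1, IP 2 and IP 3, with the 1 kb limit dashed. The VTRNA1 genes and RN7SL2 lie under the limit at 0 to 194 bp, and the other 5 genes lie at 266 kb or more in every list.

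No gene was close to the 1 kb limit on either side. The farthest peak counted in was 194 bp away, at RN7SL2 in IP 1. The nearest peak counted out at a gene without a peak was 266 kb away, at RPPH1 in IP 2. The absence of a call has a floor set by depth. The calls rested on 24037735, 23683012 and 19228143 tags in IP 1, IP 2 and IP 3 and on 28755427 tags of input. A site with input at the genome average needed a pileup of 10, 9 and 10 reads to reach the lowest −log10 p called in each list, a fold of 4.49, 4.24 and 4.84. At the median background of the called peaks, the pileup needed was 12, 13 and 13 reads, a fold of 3.71, 4.03 and 4.13, and peaks on higher input were called at folds down to 2.32, 3.25 and 1.45. The input background at the 5 genes is not known from the lists, so no single floor can be given for them, and they are not shown to be free of SOX4. In a mixture of cells, binding in fewer cells and weaker binding in each cell cannot be told apart.

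Set among the 263 shared regions, RN7SL2 was high and the vault RNA genes were in the middle. By mean fold, RN7SL2 ranked 21, VTRNA1-2 ranked 117, VTRNA1-3 ranked 158 and VTRNA1-1 ranked 164. Within the single lists, RN7SL2 ranked 33 of 627 peaks in IP 1, 20 of 524 in IP 2 and 15 of 407 in IP 3. VTRNA1-1 ranked 272, 88 and 239 in the same lists, VTRNA1-2 ranked 89, 117 and 232, and VTRNA1-3 ranked 300, 69 and 245. The vault RNA genes thus reached the upper part of the list in IP 2 and lay below the middle of the list in IP 3.

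The median of the mean folds was 8.24 over the 4 gene regions and 8.23 over the other 259 shared regions, whose middle range, from the first to the third quartile, was 6.75 to 10.6. The 3 vault RNA regions alone had a median of 7.76. The input background had a median of 2.08 times the genome average over the 4 gene regions and 1.91 over the other shared regions. VTRNA1-3 was below both medians, at 1.22. The vault RNA folds varied more between immunoprecipitations than was usual. Their coefficients of variation were 24.9%, 23.3% and 30.9%, against a median of 15.3% in the other shared regions. Regions are not replicates, and none of these differences was tested.

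**Figure D4:**
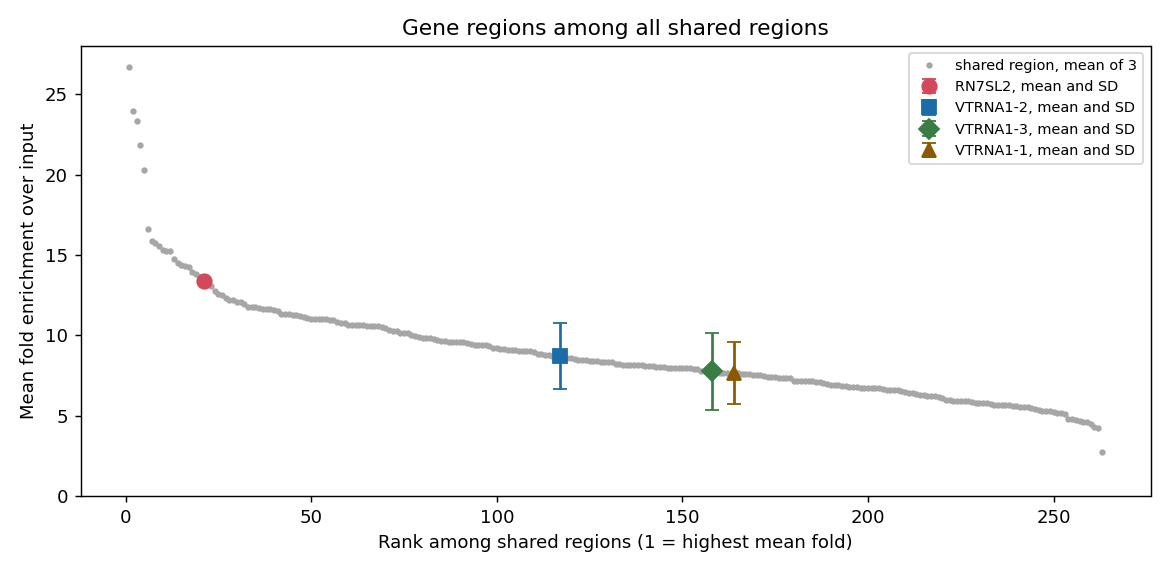
Mean fold enrichment of the 263 shared regions in order of rank (grey points), with RN7SL2 and the 3 VTRNA1 genes marked by their mean and SD over the 3 immunoprecipitations. RN7SL2 stands at rank 21 with a mean of 13.4, and the vault RNA genes stand at ranks 117 to 164 with means of 7.66 to 8.72 and overlapping SDs.

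RN7SL2 came first of the 4 genes in every immunoprecipitation, while the order of the vault RNA genes changed. RN7SL2 exceeded VTRNA1-2, the next in order, by 2.80, 4.46 and 6.80 in fold in IP 1, IP 2 and IP 3, a mean difference of 4.69 ± 2.01 (SD, n = 3). An exact two-sided permutation test over the 3 pairs gave p = 0.25, the smallest it can give, so this design cannot pass 0.05. VTRNA1-2 was above VTRNA1-3 in 2 of 3 immunoprecipitations, by 0.96 ± 2.81 in fold on average (exact permutation p = 0.75). VTRNA1-3 was above VTRNA1-1 in 1 of 3, by 0.10 ± 0.50 on average (exact permutation p = 1). These 3 comparisons are of neighbours in the observed order, and none could have passed the threshold, so the values are given as a description. For both vault RNA pairs the mean difference was smaller than its SD over the immunoprecipitations.

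The shared regions whose folds were most like those of RN7SL2, by Euclidean distance in log2 fold over the 3 immunoprecipitations, lay on chromosomes 19, 17 and 6. The nearest, on chromosome 19 from 1383270 to 1383934, had folds between 13.5 and 14.3. The next, on chromosome 17 from 8089514 to 8089829, had folds of 14.1, 14.9 and 13.8. The last, on chromosome 6 from 27721119 to 27721370, had folds of 11.9, 13.2 and 13.1. These are likenesses in level over 3 values that share 1 input.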

How the data were processed

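Per the labels' protocols, crosslinked and sheared U251 chromatin was immunoprecipitated with an antibody to HA and sequenced as single-end reads of 50 bases. Per the submitters' processing notes, the genome build was hg19, the aligner Bowtie2 (version 2.3.3.1) and the other tools Picard (2.10), bcl2fastq (2.20) and HOMER (4.9.1). The authors called peaks with MACS2 2.1.1.20160309, per the file headers, 1 list for each immunoprecipitation with the single input as control, on alignments stripped of duplicates, with extensions of 163, 155 and 179 bp and a q threshold of 0.05. The deposited pileup is a signal that counts extended reads over the summit. The deposited fold enrichment is a ratio, in which the authors added 1 to the pileup and to the local background before dividing. The authors also deposited −log10 p and −log10 q for each peak.

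From these, with Python 3.11.15, NumPy 2.4.6 and SciPy 1.17.1, the local background was recovered from pileup and fold. The deposited −log10 p differed from a Poisson tail with this background by at most 0.000212. Peaks overlapping by at least 1 bp were merged, and the highest fold was taken where a region held several peaks of a list. All 9 genes are named, with the members and lists chosen with earlier results of these data known. The likeness rule names the 3 regions nearest to the strongest gene. The matching was tested on simulated data with planted peaks. Gene names, lengths and order came from RefSeq (GRCh38.p14), in which all 9 symbols matched; its coordinates, on another build, were left aside. Promoter sequences of these genes, motifs, copy identity and other RNA polymerase III genes were not analysed here, since they need hg19 positions or sequences not used here.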

Additional observations from a re-analysis of the deposited data

How the results depend on the processing

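The count of 4 genes with a peak in every list was 4 within 500 bp, 5 kb and 10 kb, by summits within 1 kb, at a q of 0.001 or less, at a fold of 4 or more, with at least 2 lists or at least 1 list required, and with any 1 immunoprecipitation left out (4 to 4). It was 3 when a peak had to span the given position, which leaves out RN7SL2. At a q of 1e-10 or less it was 2, RN7SL2 and VTRNA1-1, since VTRNA1-2 passed in 2 lists and VTRNA1-3 in 1, while 57.4% of the 263 shared regions passed in every list. Leaving out 1 immunoprecipitation moved the mean fold within 13.3 to 13.4 at RN7SL2, 6.56 to 8.29 at VTRNA1-1, 7.81 to 9.81 at VTRNA1-2 and 6.38 to 8.51 at VTRNA1-3. VTRNA1-3, at rank 158 by fold, was at 231 by mean pileup. A reciprocal overlap of 50% left RN7SL2 without a rank, since its peak in IP 3 was wider than the others. The median over the gene regions without RN7SL2, an alternative chosen after seeing the data, was 7.76. No paired analysis was possible because the input has no list of its own, as far as immunoprecipitation against input is concerned; the only pairs used were of genes within an immunoprecipitation. Of the 4 genes with peaks, VTRNA1-3 had the lowest pileups, at 15 to 27 reads. Intervals for single peaks were not computed.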
